A study of Mus musculus with 4 samples.

Results

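The members are the numbered RNF, TRIM and MARCH genes of the mouse array, that is, every gene with a non-control probe whose name in the files is Rnf, Trim or March followed by a number (with a closing letter for some Rnf and Trim genes). The rule gave 154 genes with 238 probes, out of 34816 gene entries with 55681 probes, and used names only, with no measured value. There were 77 RNF genes, 66 TRIM genes and 11 MARCH genes. One group held RNA pulled down with CPEB3 IgG and the other RNA pulled down with control IgG, each on 2 one-colour Agilent arrays. Both antibodies were bound to beads and kept for 3 h in corticohippocampal lysate, which came in both groups from male C57BL/6 mice 8 weeks old with no other genotype or treatment in the labels. From each precipitate 0.2 ug of RNA was amplified, and the product carried the dye Cy3. CPEB3 is an RNA-binding protein of neurons that regulates the translation and poly(A) tail of its target mRNAs, and the comparison addresses which mRNAs came down with its antibody more, or less, than with the control antibody.

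Ubiquitin is attached to proteins by an E1 activating enzyme, an E2 conjugating enzyme and an E3 ligase that picks the substrate. RNF, TRIM and MARCH proteins are E3 ligases, or relatives of them, and most carry a zinc-binding RING domain to which the E2 binds. TRIM proteins add B-box and coiled-coil segments and a variable C-terminal part that classifies them. MARCH proteins carry a RING-CH variant and, for most of the family, span membranes. In neurons, ligases of these families act on receptors, cytoskeletal proteins, synaptic scaffolds and transcription regulators.

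All levels given here are log2 of the processed spot signal minus log2 of that array's 75th percentile, at the brightest probe of the gene. A difference is the mean level with CPEB3 IgG minus the mean level with control IgG, from limma, given with its standard error. A member was called higher or lower at a Benjamini-Hochberg adjusted p below 0.05, adjusted over all 27592 entries tested. No lysate input was analysed here, so each value sets the CPEB3 precipitate against the control precipitate and not against abundance in the tissue. The lysate was bulk tissue, so the values do not show which cell types the precipitated RNA came from. The number of arrays limits the precision. The labels do not say whether the replicates came from different mice or lysates, so p-values reflect no more than the spread among these samples, which may be technical. The arrays of the 2 antibodies lay in different rows of the slide, and row and antibody cannot be told apart.

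The array probes are 60 nt long, and short stretches of them show what part of the mRNAs the values stand for. CPEB proteins are known for binding U-rich elements, written in DNA letters as TTTTAT or TTTTAAT, near the 3′ end of mRNAs. Of the member probes searched for these stretches, 8 hold those letters, and the first set shows them, in capitals, in the 4 that were called. Probes not well above background on at least 2 arrays were not searched, nor were some others. The Trim11 stretch lies at chr11:58804893-58804922 (+ strand, mm9), the Trim59 stretch at chr3:68839250-68839279 (- strand), that of the second Rnf11 probe at chr4:109126424-109126453 (- strand) and the Rnf214 stretch at chr9:45671805-45671834 (- strand). The probes of Trim11, Trim59 and Rnf11 were higher with CPEB3 IgG and that of Rnf214 was lower. The 4 not shown, those of Rnf8 (−0.32), Rnf20 (−0.45), Trim35 (−0.40) and the second Trim2 probe (−0.25), did not pass.
Trim11: ttaaactttgggagTTTTATcttctattta
Trim59: gtttagaaattctgggTTTTATgtataaca
Rnf11 second probe: gacatttgggtcaaggTTTTATtaaaagct
Rnf214: tactcctacaggaaatggTTTTAATtacct

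The second set shows runs of at least 5 T, in capitals, in probes that were higher with CPEB3 IgG. They lie at chr11:44378769-44378798 (+ strand) for Rnf145, at chr15:26339261-26339290 (+ strand) for March11 and chr13:54780973-54781002 (- strand) for Rnf44.
Rnf145: tgtcatatttaaaTTTTTacattcatcatg
March11: tacatccacgaacTTTTTaaaatctatgct
Rnf44: ttaaatgtgtggTTTTTTccatcccattgg

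The third set shows the letters AATAAA, in capitals, which are those of the cleavage and polyadenylation signal that precedes the poly(A) tail, in 2 more probes that were higher. They lie at chr1:72473690-72473719 (- strand) for March4 and chr11:48619920-48619949 (- strand) for Trim41.
March4: taaaagcttggaAATAAAatttctttccct
Trim41: aaaggtgggttgtgttgcaaaAATAAAaaa

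Of the 154 members, 136 were tested, and 129 of these were well above background on all 4 arrays. The other 18 were not well above background on the 2 arrays required: 12 were so on 0 arrays and 6 on 1 array. These 18 were Rnf17, Rnf133, Rnf151, Rnf186, Rnf222, Trim5, Trim15, Trim30b, Trim30c, Trim30d, Trim31, Trim34b, Trim50, Trim52, Trim55, Trim63, Trim72 and Trim75. Trim55 and Trim63 encode ligases of muscle, and Rnf133 and Rnf17 belong to the male germ line. Their values have only a bound and are not given.

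Among the tested members, 42 (30.9%) were higher with CPEB3 IgG and 22 (16.2%) were lower, while 72 did not pass. These counts include Trim6, which passed the filter only through its CPEB3 arrays. They also include Rnf183 and Trim54, which passed only through their control arrays, so the filter was tied to the direction of these calls. Over all entries 19.2% were higher and 20.2% lower, and for the 16957 entries with a RefSeq match the shares were 25.7% and 19.9%. The median difference was 0.17 for the members, against −0.14 for all entries and −0.0085 for the RefSeq-matched entries. The 2 arrays of 1 antibody lay apart from the 2 of the other for 114 members (83.8%), where 72.9% of all entries did so. With a difference of at least 2-fold also required, 24 members were higher and 12 lower, against 13.6% and 12.7% of all entries. An unadjusted p below 0.05 was reached by 82 members (60.3%), against 50.4% of all entries. The share of higher genes among the called members, 65.6%, depended on the scale: it was 82.5% (52 higher, 11 lower) when arrays were set to a common median and 97.1% (34 higher, 1 lower) when they were set to the spike-in controls. Among all called entries the same share was 48.7% in the main setting, 68.5% with the common median and 86.4% with the spike-in controls. The median of all entries itself moved from −0.14 to 0.15 and to 0.51 under these 2 scales, and that of the members to 0.46 and 0.82, above the median of all entries in each.

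**Figure D1:**
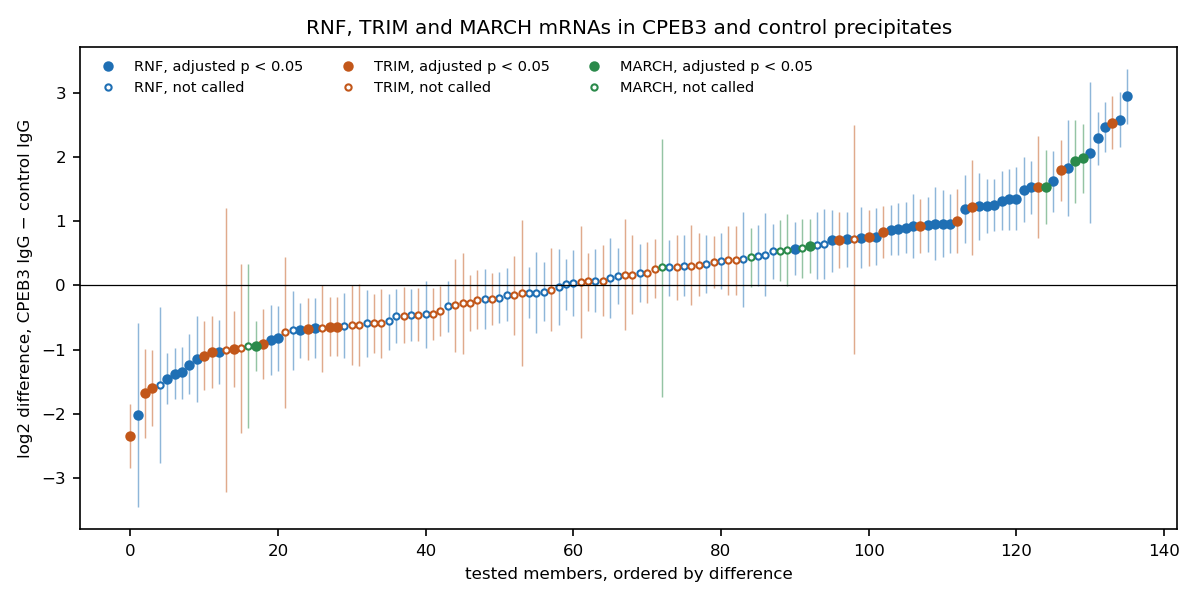
Log2 difference (CPEB3 IgG minus control IgG) of each of the 136 tested members, ordered from lowest to highest; bars are 95% intervals from limma, colours mark the family and filled points passed adjusted p 0.05. The row runs from −2.34 (Trim28) to 2.95 (Rnf24), and the 3 widest intervals belong to March1, Trim25 and Trim61, whose control arrays were far apart.

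The families differed in their counts. Of 72 tested RNF genes, 29 were higher and 11 lower, with a median difference of 0.35. Of 11 MARCH genes, 4 were higher and 1 was lower, with a median of 0.55. Of 53 tested TRIM genes, 9 were higher and 10 lower, and their median of −0.21 was not fixed in sign: it was 0.046 with quantile scaling, 0.023 with cyclic loess, 0.077 with median scaling and 0.44 with spike-in scaling. The median of all entries was −0.14 in the main setting and 0.028, 0.0075, 0.15 and 0.51 in these settings, in the same order. The shares higher and lower were 40.3% and 15.3% for RNF, 36.4% and 9.09% for MARCH and 17.0% and 18.9% for TRIM genes. They were 19.2% and 20.2% for all entries. The difference between the families was not tested.

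The transmembrane RNF classes and the MARCH family held the highest class medians in the main setting. The transmembrane RNF ligases outside the protease-associated (PA-TM-RING) group had 9 of 14 tested genes higher and 2 lower, with a median difference of 0.73. The PA-TM-RING ligases, single-pass proteins with a luminal protease-associated domain, had 4 of 9 higher and 0 lower, with a median of 0.64. Together with the MARCH genes, which were joined to them after the values were seen and include March7 and March10, whose products lack membrane spans, these made 17 higher and 3 lower of 34, with a median of 0.60. The other 102 tested members had 25 higher (24.5%) and 19 lower (18.6%), with a median of −0.10. These shares lay near those of the RefSeq-matched entries (25.7% and 19.9%). The median of the joined classes lay between 0.51 (mean of probes) and 1.25 (spike-in scaling) over all alternative settings. The median of all entries was −0.18 and 0.51 in these 2 settings. With all 4 arrays used, their count of higher genes lay between 10 (29.4%, no scaling) and 23 (67.6%, median scaling). Of all entries, 11.3% and 24.6% were higher in these 2 settings. Their count was below that of the main setting with any 1 array left out.

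**Figure D2:**
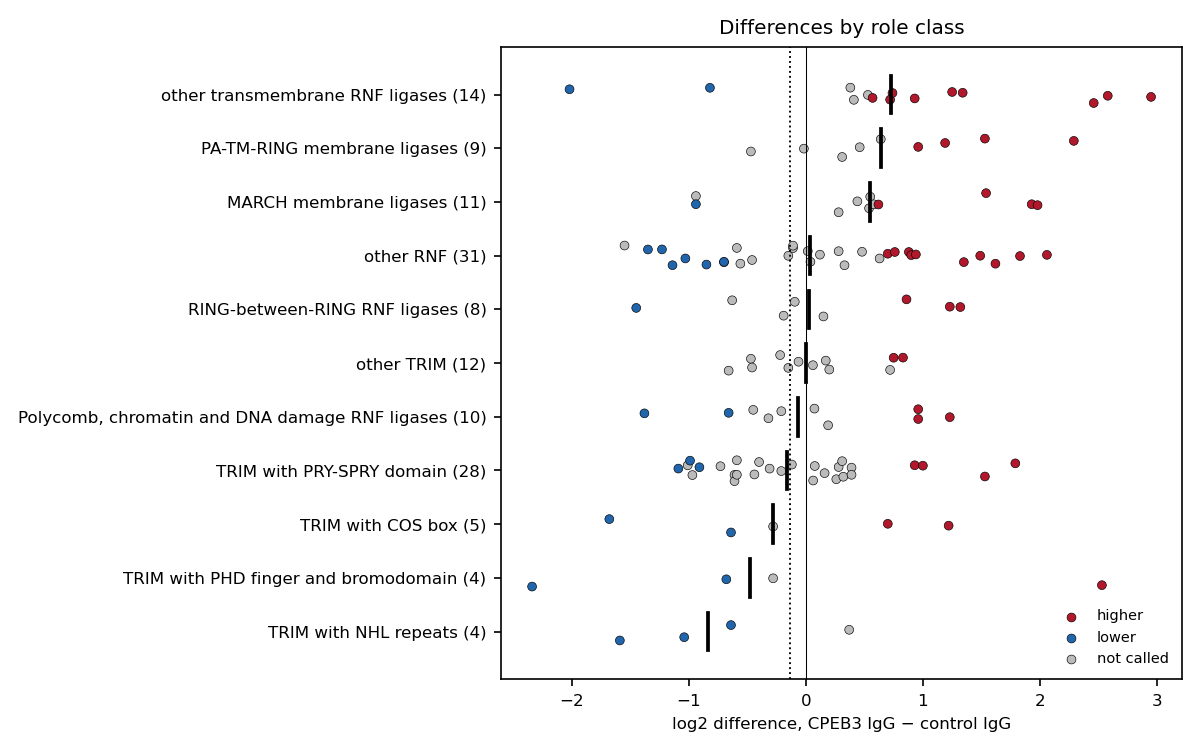
Log2 difference of the tested members by role class, with the number tested in brackets; red points were called higher, blue lower and grey not called, black bars are class medians and the dotted line is the median of all entries. The 3 classes at the top, named as membrane ligases although March7 and March10 lack membrane spans, have medians of 0.73, 0.64 and 0.55, and the NHL-repeat TRIM genes at the bottom −0.84.

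Rnf24, which encodes a small membrane RING protein known to bind TRPC channels, had the largest difference of all members. Its probe, at chr2:131124421-131124480 (- strand), read 2.48 and 2.35 with CPEB3 IgG, against −0.59 and −0.47 with control IgG. Both CPEB3 arrays lay well above both control arrays. The difference was 2.95 ± 0.16 (7.70-fold, adjusted p = 0.00384), which put Rnf24 in place 130 of all entries from the top. Rnf139, which encodes the sterol-responsive ligase TRC8 of the endoplasmic reticulum, read 2.35 and 2.49 against −0.23 and −0.091, a difference of 2.58 ± 0.16 (5.98-fold, adjusted p = 0.00384). Rnf145, its close relative in the control of cholesterol synthesis, read 3.04 and 3.04 against 0.58 and 0.57. The replicates were almost equal and the groups were apart by 2.46 ± 0.14 (5.52-fold, adjusted p = 0.00384). Of the other transmembrane RNF genes, Rnf26 (1.34), Rnf170 (1.25), Rnf185 (0.93), Rnf121 (0.74), Rnf103 (0.72) and Rnf152 (0.57) were also higher. The calls of Rnf121, Rnf103 and Rnf152 were kept in only 10, 9 and 8 of 17 alternative settings. Rnf103 had a second probe at 0.08, which did not pass, and lost its call when its probes were averaged (0.40). The brightest Rnf26 probe is placed by the files on chromosome 6 and the other Rnf26 probes on chromosome 9, and 1 of those was higher too (1.50).

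The 2 lower genes of the class were Rnf5 and Rnf183. Rnf5, a ligase of endoplasmic reticulum quality control, read 1.76 and 1.83 against 2.44 and 2.79, a difference of −0.82 ± 0.19 (adjusted p = 0.0309). It lost the call under spike-in, median and no scaling. Rnf183 was not well above background on either CPEB3 array and was at least 2.12-fold lower there. It passed the filter only through its control arrays. The adjusted p of 0.0445 belongs to the levels as read (−2.02 ± 0.53), not to this bound. The call was kept in 6 of 16 alternative settings, the filter on all 4 arrays leaving no value. Rnf182, a brain-enriched ligase, read 1.55 and 1.62 against 1.30 and 1.11, and its difference of 0.38 ± 0.16 did not pass (adjusted p = 0.132).

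In the PA-TM-RING class, Rnf149 read 3.73 and 3.60 with CPEB3 IgG against 1.40 and 1.34 with control IgG. The groups were apart by 2.29 ± 0.15 (4.90-fold, adjusted p = 0.00384). Rnf130 read 2.24 and 2.19 against 0.76 and 0.61, a difference of 1.53 ± 0.15 (adjusted p = 0.00494). Its second probe, further 3′, was also called higher but was well above background on only 2 arrays. Rnf215 (1.19) and Rnf13 (0.96) were also higher. RNF13 is a ligase of endosomes and lysosomes, and its second probe gave 0.21, which did not pass. Rnf128, Rnf43, Rnf148, Rnf150 and Rnf167 were not called, with differences from −0.47 (Rnf150) to 0.64 (Rnf167).

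The 11 MARCH genes were all tested. March11 read 2.14 and 1.74 with CPEB3 IgG against 0.014 and −0.092 with control IgG, a difference of 1.98 ± 0.20 (3.95-fold, adjusted p = 0.00497). March4 read 0.45 and 0.93 against −1.10 and −1.38, a difference of 1.93 ± 0.24 (3.81-fold, adjusted p = 0.00716). MARCH4 and MARCH9 are known to remove MHC class I molecules from the cell surface. March8, whose product downregulates surface receptors, read 3.44 and 3.34 against 2.08 and 1.63, a difference of 1.54 ± 0.21 (adjusted p = 0.00932). The groups did not overlap for any of these 3 genes. March8 lost its call without either CPEB3 array, and March11 lost it when its 3 probes were averaged (0.55). The other March11 probes gave 1.02 and −1.36, and neither passed.

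March9 read 3.86 and 3.92 against 3.18 and 3.36 and was higher by 0.62 ± 0.16 (adjusted p = 0.0415), a call kept in 6 of 17 alternative settings and in 0 of the 4 that left out an array. March3, a ligase of endosomes, was the 1 lower MARCH gene, at −1.28 and −1.24 against −0.32 and −0.31, a difference of −0.94 ± 0.15 (adjusted p = 0.0119) that lost its call without either CPEB3 array and with spike-in or no scaling. March6, a multi-spanning ligase of the endoplasmic reticulum, differed by 0.58 ± 0.17 (adjusted p = 0.0567), March2 by 0.55 ± 0.21 (adjusted p = 0.103) and March7 by 0.54 ± 0.18 (adjusted p = 0.0735). None of these 3 passed, although their groups did not overlap. March10 read −2.25 and −1.79 against −1.71 and −0.45, with a difference of −0.94 ± 0.48 that did not pass (adjusted p = 0.189). March1, known for MHC class II turnover in dendritic cells, read 3.27 and 3.90 against 2.27 and 4.34. Its control arrays enclosed the CPEB3 arrays, and its difference of 0.28 ± 0.75 (adjusted p = 0.791) had no settled direction. March5, the ligase of the outer mitochondrial membrane, is described with the genes whose probes disagree.

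**Figure D3:**
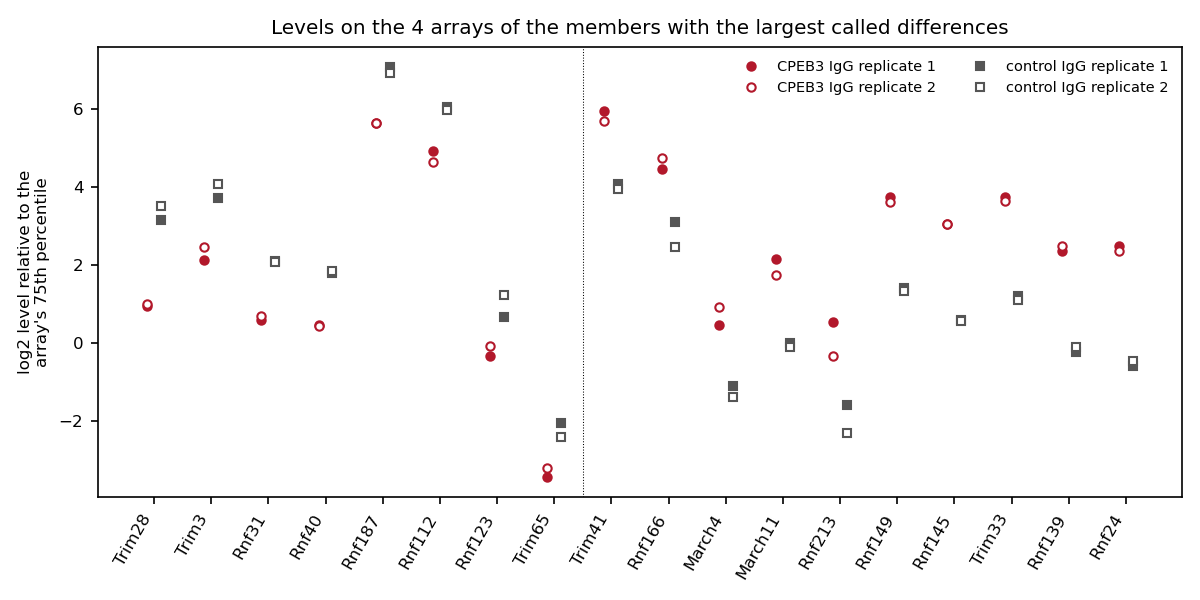
Log2 level on each of the 4 arrays, relative to the 75th percentile of the array, of the 8 lower (left) and 10 higher (right) members with the largest called differences that were well above background on all arrays; circles are CPEB3 IgG and squares control IgG. Groups that do not overlap were a condition for being shown. Rnf145 has nearly equal replicates and Rnf213 the most spread ones.

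Of the 4 TRIM genes with a PHD finger and bromodomain, the chromatin regulators of the family, 1 was higher and 2 were lower. Trim33, which encodes TIF1-gamma, a regulator of SMAD4 and TGF-beta signalling, read 3.74 and 3.63 with CPEB3 IgG against 1.21 and 1.09 with control IgG, at chr3:103162596-103162655 (+ strand). Its difference was 2.53 ± 0.15 (5.79-fold, adjusted p = 0.00384), the largest of the TRIM genes. Trim28, which encodes KAP1, the corepressor recruited by KRAB zinc finger proteins, had the lowest difference of all members. It read 0.96 and 1.01 with CPEB3 IgG against 3.16 and 3.50 with control IgG, at chr7:13615914-13616069 (+ strand). Both CPEB3 arrays lay below both control arrays, and the difference was −2.34 ± 0.18 (5.08-fold lower, adjusted p = 0.00391). A second probe under the same name, which the files place on the opposite strand, was lower as well (−0.93). Trim24, another TIF1 protein, was lower (−0.68 ± 0.18, adjusted p = 0.0445), and Trim66 did not pass (−0.28 ± 0.29).

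The 4 NHL-repeat TRIM genes had 0 higher and 3 lower genes, with a median of −0.84. Trim3, whose product acts on postsynaptic scaffolds, read 2.13 and 2.46 with CPEB3 IgG against 3.71 and 4.07 with control IgG, at chr7:112759222-112759281 (- strand). The groups did not overlap, with a difference of −1.59 ± 0.22 (3.01-fold lower, adjusted p = 0.00924), and its second probe gave −2.16. Trim71, the let-7 target LIN41 of stem cells, lay near background at −3.28 and −3.58 against −2.24 and −2.55, a difference of −1.04 ± 0.21 (adjusted p = 0.0216) whose call was kept in 1 of 6 settings with another scaling or background correction. Trim2, the ligase of neurofilament light chain, read 5.50 and 5.67 against 6.33 and 6.12, a difference of −0.64 ± 0.17 (adjusted p = 0.0455), a call kept in 5 of 17 alternative settings. It was lost with quantile, median and no scaling, the mean of probes, the replicate block, no filter on dim probes, the probe-level fit and each array left out, and the difference was 0.014 with spike-in scaling. Trim32, known from limb-girdle muscular dystrophy, read 5.78 and 5.91 against 5.45 and 5.50 and did not pass (0.37 ± 0.15, adjusted p = 0.125). With quantile, median, no and spike-in scaling, 16.9%, 11.3%, 13.1% and 2.79% of all entries were lower, against 20.2% in the main setting. The count of 3 lower genes in this class fell to 1 with quantile, median or no scaling and to 0 with spike-in scaling. It was 0 without CPEB3 IgG replicate 1, 1 without CPEB3 IgG replicate 2, 1 without control IgG replicate 1 and 2 without control IgG replicate 2.

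The COS-box TRIM genes encode proteins that bind microtubules, and of 5 tested 2 were higher and 2 lower. Trim67, a neuronal relative of Trim9, read −1.53 and −2.08 against −2.81 and −3.23 and was higher by 1.22 ± 0.28 (adjusted p = 0.0308). Its other probe, further 5′, gave −0.43, which did not pass, and the call was lost when both were averaged (0.39, adjusted p = 0.236), with no filter on dim probes, and without either CPEB3 array or control IgG replicate 2. Trim36 was higher by 0.70 ± 0.16 (adjusted p = 0.0314), a call kept in 9 of 17 alternative settings. Trim46, which organises microtubules of the proximal axon, read 2.51 and 2.61 against 3.08 and 3.31, a difference of −0.64 ± 0.17 (adjusted p = 0.0442), a call kept in 8 of 17 alternative settings, with a value of 0.018 under spike-in scaling. Trim54, a muscle ligase, was not well above background with CPEB3 IgG and at least 3.03-fold lower there. It passed the filter only through its control arrays. The adjusted p of 0.0116 belongs to the levels as read (−1.68 ± 0.26), not to this bound. The call was lost with normexp background correction and with spike-in scaling. Trim9, a ligase of netrin-guided axon branching, read 4.20 and 4.25 against 4.40 and 4.60 and did not pass at its brightest probe (−0.28 ± 0.16, adjusted p = 0.238), while both of its other probes were lower (−1.19 and −1.37).

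The PRY-SPRY class is the largest of the TRIM family, with many innate immune ligases, and 9 of its 37 genes were not tested. Of the 28 tested, 4 were higher and 3 lower, with a median of −0.16. Trim41, known to target protein kinase C, read 5.93 and 5.67 with CPEB3 IgG against 4.08 and 3.95 with control IgG, a difference of 1.79 ± 0.17 (3.46-fold, adjusted p = 0.0047). Trim43c (1.00) and Trim11 (0.93) were higher as well. Trim6 was not well above background with control IgG and passed the filter only through its CPEB3 arrays. These exceeded the limit of detection there by at least 1.81-fold. The adjusted p of 0.0199 belongs to the levels as read (1.53 ± 0.29), not to this bound. The call was lost with normexp background correction. The Trim12, Trim30, Trim34 and Trim43 genes are families of near-identical copies, so their signals may be shared among copies and are uncertain. Trim58 (−0.99) and Trim47 (−0.91) were lower, and so was Trim65 at 1 of its probes. Trim25, the ligase of the antiviral sensor RIG-I, read 5.17 and 4.75 with CPEB3 IgG against 7.14 and 4.79 with control IgG. The 2 control arrays were thus apart by more than the groups, and the difference of −1.01 ± 0.82 did not pass (adjusted p = 0.38). Among the other TRIM genes, Trim59 (0.83 ± 0.15, adjusted p = 0.0173) and Trim37, a ligase of peroxisomes and centrosomes (0.75 ± 0.16, adjusted p = 0.0273), were higher. The call of Trim37 was kept in 10 of 17 alternative settings. In this class 0 of 12 were lower, and Trim8 did not pass (−0.15 ± 0.23, adjusted p = 0.622). Trim61 read −2.47 and −2.56 against −4.19 and −2.28, again with unequal control arrays.

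In the RING-between-RING class, whose members pass ubiquitin through a cysteine of their own, 3 of 8 were higher and 1 was lower. Rnf216, which encodes TRIAD3A, a ligase of the synaptic protein ARC, read 3.55 and 3.34 with CPEB3 IgG against 2.21 and 2.04 with control IgG, and was higher by 1.32 ± 0.17 (2.50-fold, adjusted p = 0.00793). The paralogues Rnf144a (1.23) and Rnf144b (0.86) were both higher. Rnf31, the catalytic subunit HOIP of the linear ubiquitin chain assembly complex, read 0.60 and 0.68 against 2.10 and 2.08, a difference of −1.45 ± 0.15 (2.73-fold lower, adjusted p = 0.00501). Its 2 probes both gave −1.45 but start only 52 bp apart, so they measure nearly the same place. Rnf14 (−0.63 ± 0.19, adjusted p = 0.059) and Rnf19a, which encodes dorfin (−0.095 ± 0.17, adjusted p = 0.689), did not pass at their brightest probes, and the more 5′ probe of Rnf14 was lower (−1.70).

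Of the 10 nuclear RNF ligases of Polycomb, chromatin and DNA damage, 3 were higher and 2 lower, with a median of −0.068. Rnf111, the ligase Arkadia of TGF-beta signalling, read 4.30 and 3.93 against 2.89 and 2.88 and was higher by 1.23 ± 0.19 (adjusted p = 0.0123). Rnf138 (0.96) and Rnf2, which encodes the Polycomb ligase RING1B (0.96 ± 0.17, adjusted p = 0.0171), were higher. Rnf40 and Rnf20 encode the partners of the complex that ubiquitinates histone H2B. Rnf40 read 0.45 and 0.43 with CPEB3 IgG against 1.78 and 1.85 with control IgG, a difference of −1.38 ± 0.15 (2.60-fold lower, adjusted p = 0.00543). Rnf20 read 2.72 and 2.42 against 3.15 and 2.90, and its difference of −0.45 ± 0.19 did not pass (adjusted p = 0.134). Whether the 2 partners differ from each other was not tested. Rnf6, a ligase of LIM kinase 1 in axons, differed by −0.66 ± 0.17 (adjusted p = 0.0434), a call kept in 8 of 17 alternative settings, with a value of −0.0076 under spike-in scaling.

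The remaining RNF genes, 31 tested, had 10 higher and 6 lower. Rnf213, which encodes a giant ATPase ligase linked to moyamoya disease, read 0.55 and −0.32 with CPEB3 IgG against −1.59 and −2.31 with control IgG. Its replicates were spread but its groups did not overlap (2.06 ± 0.41, 4.18-fold, adjusted p = 0.0214), and it lost the call without CPEB3 IgG replicate 1. Rnf166 read 4.46 and 4.73 against 3.09 and 2.45, a difference of 1.83 ± 0.28 (3.55-fold, adjusted p = 0.0113) that lost its call without either CPEB3 array. Rnf44 was higher by 1.35 (adjusted p = 0.00862). Rnf165 (1.49), Rnf11 (0.94), Rnf141 (0.90), Rnf219 (0.88), Rnf114 (0.76) and Rnf207 (0.70) were also higher. The more 5′ probe of Rnf165 gave −0.16 and the most 5′ probe of Rnf141 gave 0.087, and neither passed. With probes averaged, Rnf165 gave 0.66 (adjusted p = 0.0405) and Rnf141 lost its call (0.62, adjusted p = 0.0562). The calls of Rnf114 and Rnf207 were each kept in 10 of 17 alternative settings.

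On the lower side, Rnf187, a coactivator of c-Jun, read 5.62 and 5.64 with CPEB3 IgG against 7.05 and 6.91 with control IgG (−1.35 ± 0.15, 2.55-fold lower, adjusted p = 0.00592). Rnf112, a brain GTPase with a RING domain, read 4.91 and 4.63 against 6.03 and 5.97 (−1.23 ± 0.17, 2.34-fold lower, adjusted p = 0.00984). Rnf123, the ligase KPC1 of the cell cycle inhibitor p27, read −0.32 and −0.083 against 0.66 and 1.22 (−1.14 ± 0.25, adjusted p = 0.0281). Groups were apart for each of these 3 genes, none of the 3 calls held under spike-in scaling, and that of Rnf123 was also lost without either CPEB3 array or without control IgG replicate 2. Rnf39 (−1.03), Rnf214 (−0.85) and Rnf181 (−0.70) were lower too. Several members with known roles in brain did not pass: Rnf220 (0.016 ± 0.15), Rnf10, a synapse-to-nucleus messenger (0.28 ± 0.16), Rnf41, the ligase NRDP1 of ERBB3 (−0.11 ± 0.23), and Rnf146, which reads poly-ADP-ribose (−0.59 ± 0.19). Their adjusted p-values were 0.942, 0.245, 0.74 and 0.073.

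Many members were measured at more than 1 place, and the probes of a gene did not always agree. Of 58 members with several kept probes, fitted probe by probe, 4 had all probes higher (Rnf11, Rnf114, Rnf121 and Rnf130) and 4 all lower (Rnf31, Rnf181, Trim3 and Trim28). In 21 no probe passed, in 27 some passed in 1 direction, and in 2 probes passed in opposite directions. The first of these 2, Trim65, read −3.42 and −3.20 against −2.05 and −2.39 at its brightest probe (−1.09 ± 0.21) and −2.37 and −1.94 against −3.84 and −3.81 at a probe 1735 bp further 3′ (1.67 ± 0.21, adjusted p = 0.00889). The order of the antibodies thus turned over within the gene. March5 was lower at its most 5′ probe, at 0.30 and 0.39 against 0.91 and 1.18 (−0.70 ± 0.18, adjusted p = 0.0461), not called at the brightest probe (0.44), and higher at its most 3′ probe, at 1.39 and 1.37 against 0.16 and 0.31 (1.15 ± 0.16, adjusted p = 0.011). Trim25 had the brightest probe with unequal control arrays and a more 3′ probe that was higher (1.00 ± 0.26, adjusted p = 0.0464). The widest range over all kept probes of a gene was 3.34, that of March11, from −1.36 (not called) to 1.98 (higher).

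Among the 55 members whose kept probes could be put in order along 1 strand, the most 3′ probe had the higher difference in 40 (72.7%), and the median difference was 0.068 at the most 3′ and −0.16 at the most 5′ probe. Among the other 4368 genes of the array with ordered probes, the same held for 3335 (76.4%), with medians of 0.24 and −0.36. For these genes only probes with a RefSeq match counted, and genes with such probes on several chromosomes or strands were left out. The members also kept probes without a match, so the 2 sets were not chosen alike. On these sets, the share and the gap between medians were no larger in the members than in the other genes. The widest gap in this direction between the end probes was that of Trim65, followed by those of Trim35 (−2.59 at the 5′ and −0.40 at the 3′ probe), Trim25 and Rnf213 (0.077 and 2.06). The widest gap in the opposite direction was that of Trim7 (0.16 and −1.66), where neither probe passed, and Rnf121 (1.77 and 0.74) had that order with both end probes higher. RNA integrity was not given in the sources used here, and its part in the probe differences was not tested.

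**Figure D4:**
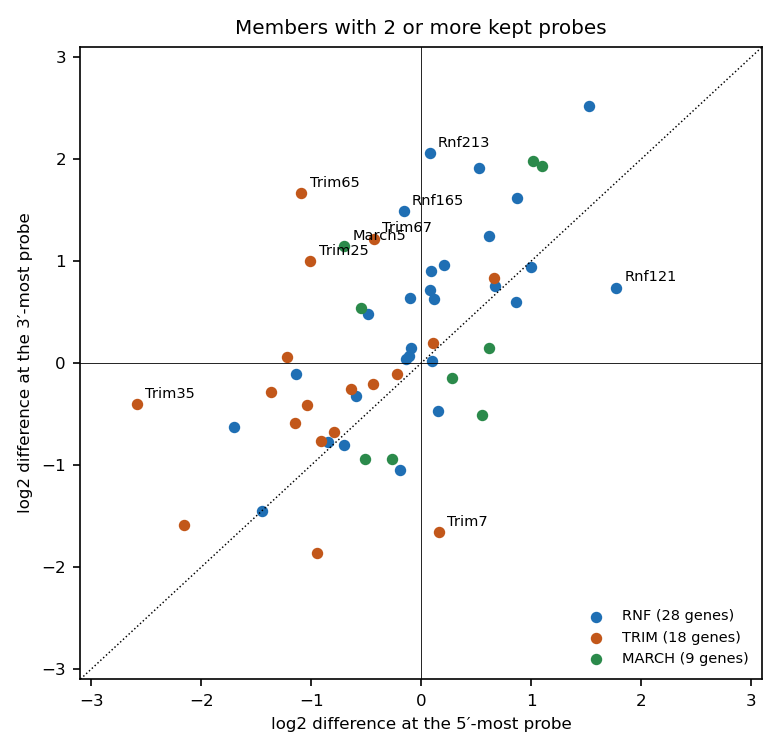
Log2 difference at the most 5′ probe (horizontal) and the most 3′ probe (vertical) of 55 members with several kept probes; the dotted line marks equal values and colours mark the family. Points above the line, 40 of 55, have the higher difference at the 3′ probe, and Trim65 and March5 lie at upper left, negative at the 5′ and positive at the 3′ probe.

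The base content of the probes moved with the difference, as it did over the array. The median share of T was 34.2% in the probes of the 42 higher members and 26.7% in those of the 22 lower members, against 33.3% and 26.7% for RefSeq-matched entries of the same calls. The rank correlation between T share and difference was 0.22 over the 136 members, which share these arrays, and 0.31 over the RefSeq-matched entries. Counted at the brightest probe alone, the element TTTTAT or TTTTAAT was found on the mRNA strand in 6 members (4.41%), against 5.85% of RefSeq-matched entries. It stood in 2 of the 42 higher members (Trim11 and Trim59, 4.76%), in 1 of the 22 lower (Rnf214, 4.55%) and in 3 of the 72 not called (Rnf8, Rnf20 and Trim35, 4.17%), where RefSeq-matched probes had 10.7%, 2.46% and 4.81%. On the opposite strand the same letters were in 8.09% of member probes and 8.06% of RefSeq-matched probes, and by call in 6 of the 42 higher members (14.3%), 5 of the 72 not called (6.94%) and 0 of the 22 lower, against 8.88%, 8.18% and 6.68% of RefSeq-matched probes. A run of 5 T, which can overlap the element, was in 8 of the 42 higher members (19.0%) and 1 of the 22 lower (4.55%), against 22.3% and 6.06% of RefSeq-matched probes. AATAAA was in 10 of the 42 higher members (23.8%) and 1 of the 22 lower (4.55%), against 16.0% and 15.5%. Runs of T and AATAAA were searched on the mRNA strand alone. A probe covers 60 nt, so a missing match says nothing about the rest of the mRNA.

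Other genes of the pathway, from lists of RING ligases outside these names and of ubiquitin genes with E1 and E2 enzymes, gave the following counts. Of 66 tested RING ligases, 29 were higher and 13 lower, with a median of 0.49, where 19.2% and 20.2% of all entries were higher and lower, with a median of −0.14. The largest differences, named after their values were seen, were those of Mex3d (3.61), Siah2 (3.08) and Mex3b (3.03), where MEX3 proteins are RNA-binding ligases and SIAH proteins are ligases of the hypoxia response, and the lowest was Rlim (−1.72). Of 37 tested ubiquitin, E1 and E2 genes, 13 were higher and 7 lower, with a median of 0.064. The polyubiquitin gene Ubb (−3.13) and the main E1 gene Uba1 (−2.06) were lower, and the E2 genes Ube2d1 (2.02) and Cdc34 (1.77) were higher.

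The tissue label was checked with marker genes. All tested markers were well above background on all 4 arrays, Tek alone being untested. Of 6 markers each, excitatory neurons had 0 higher and 1 lower, inhibitory neurons 0 and 2, hippocampus 0 and 2, astrocytes 2 and 1, oligodendrocytes 0 and 1, and microglia 0 and 2. Endothelial markers had 1 of 5 higher and 0 lower, and blood markers 0 of 4 higher and 1 lower. Correlations between arrays over the 27592 tested entries, each at its brightest probe, were 0.988 within CPEB3 IgG, 0.979 within control IgG and 0.925 to 0.938 between the antibodies. Between 68.0% and 73.5% of probes were well above background on each array, and 0 spots were saturated.

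The calls were recomputed under 17 alternative settings of processing and samples, or 16 for Rnf183, Trim6 and Trim54, which the filter on all 4 arrays left out. Of the 42 higher members all kept their sign in every setting, and 13 kept their call in every one, among them March4, Rnf24, Rnf26, Rnf44, Rnf130, Rnf139, Rnf144a, Rnf145, Rnf149, Rnf170, Trim33 and Trim41. Of the 22 lower members 19 kept their sign, the exceptions being Trim2, Trim46 and Trim65, and 1, Trim28, kept its call in every setting. With each array left out in turn, these 13 and March11 (14 in all) stayed higher throughout, and Rnf31, Rnf40, Rnf187 and Trim28 (4 in all) stayed lower throughout, while every other called member lost its call without at least 1 of the arrays. With 1 array left out, fewer members passed in each direction, and fewer of all entries did so too. The median difference of the members was then 0.21 and 0.12 without CPEB3 IgG replicates 1 and 2. It was 0.13 and 0.21 without control IgG replicates 1 and 2. The medians of all entries in the same order were −0.079, −0.17, −0.19 and −0.073.

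**Figure D5:**
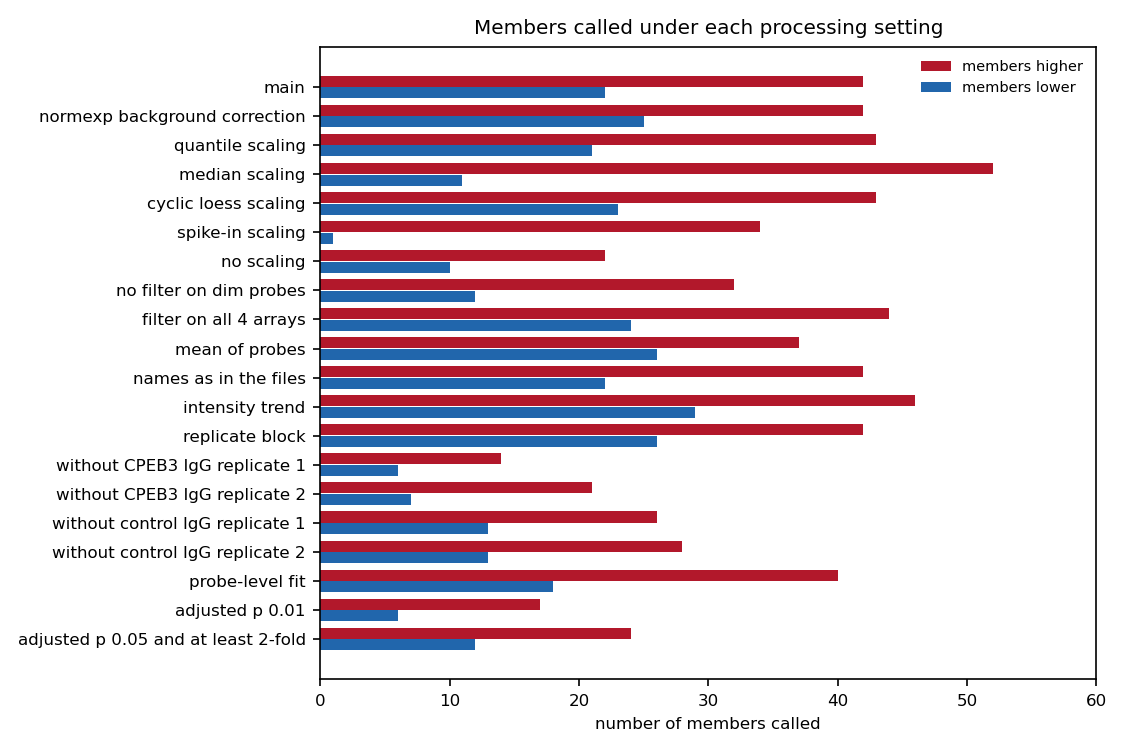
Number of members called higher (red) and lower (blue) with CPEB3 IgG under the main setting and each alternative. The bars run from 14 to 52 higher and from 1 to 29 lower, with the most uneven split under spike-in scaling (34 and 1).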

How the data were processed

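RNA precipitated with CPEB3 IgG or control IgG was read on 4 Agilent arrays, grouped by the sample titles. The values deposited by the authors are intensities of spots in a single colour. Per the file headers, these processed intensities are spot brightness after background subtraction and detrending within the array by Agilent Feature Extraction, with no scaling between arrays. The deposited mean and background intensities served for 1 alternative. Probe coordinates are on mm9, per the file headers, and exon or UTR positions were not analysed here.

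From these, log2 of the processed intensity minus the array's 75th percentile was taken. Control spots and spots with outlier flags were left out, spots of a probe were averaged, and probes well above background on at least 2 arrays were kept (40616). Symbols were updated through RefSeq accessions (27509 probes matched, GRCm38 table, names only), which renamed 2017 probes. The brightest kept probe stood for a gene. The same model fitted to each probe served second probes. The levels of a gene not well above background in 1 group give a bound: on each array of the dim group the probe's value, or the lowest value well above background if that is higher, was taken, and their mean was set against the mean of the bright group. Tests were two-sided and used lmFit and eBayes of limma 3.58.1 (R 4.3.3) without a block. Benjamini-Hochberg adjustment ran over 27592 entries, with a threshold of 0.05. The fit was tried on simulated data. With few entries changed, 50 at each fold size, it recovered 0 at 1.5-fold, 2-fold and 4-fold and 24 (48%) at 8-fold. With as many changed as were called (10897, at 2.33-fold), it recovered 8630 (79.2%) and made 288 false calls. A member that did not pass is thus not shown to be unchanged. Intervals are 95%.

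The members, role classes, gene lists and markers were chosen with earlier results of these data known. The 54 members followed through every setting were those with the 10 largest positive and 8 largest negative called differences (well above background on all arrays, groups apart), every MARCH gene, the 2 called members of each class with the largest differences (with none, the smallest p), called members below background in 1 group, members with opposite probes, and a list with roles in brain. Other members are given by their difference or as part of a count and were chosen after their values were seen. Alternatives were other background correction, scaling, filters, probe summaries, names, variance prior, a replicate block, thresholds, and each array left out. Replicate arrays shared 0 identical values. Replicate numbers joined only 2 pairs, and nothing in the labels says that a number marks a shared lysate. Some genes and sequences that these rules take are not reported here.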

Additional observations from a re-analysis of the deposited data

How the results depend on the processing

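Depth is not defined for arrays, and signal over background limits the 18 untested members and the bounds of Trim6, Trim54 and Rnf183. The count of 42 higher members became 22 with no scaling, 17 at adjusted p 0.01 and 24 with a 2-fold difference, and 14 to 28 with 1 array left out. The count of 22 lower members became 11 with median scaling, 1 with spike-in scaling, 10 with no scaling, 12 with no filter on dim probes, 6 at adjusted p 0.01, 12 with a 2-fold difference, and 6 to 13 with 1 array left out. Over all entries the share called higher was 19.2% in the main setting and 11.3% with no scaling. The share of all entries called lower was 20.2% in the main setting, 11.3% with median scaling and 2.79% with spike-in scaling. It was 13.1% with no scaling and 11.8% with no filter on dim probes. With a 2-fold difference also required, 13.6% of all entries were higher and 12.7% lower. A fit with the replicate number as a block gave 42 higher and 26 lower, against 20.9% and 24.1% of all entries. The correlation of same-numbered arrays' deviations was 0.391, over only 2 pairs, so the numbers are not taken to pair the arrays. Leaving out an array leaves 1 array in its group, which is assumed to vary like the others. The causes of these changes were not tested.

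Of 915 values of named members under alternatives, 737 kept direction and side of the threshold, 131 lost the call, 19 gained it and 28 changed sign. With spike-in scaling the sign changed for Rnf14 (0.029), Rnf146 (0.062), Rnf19a (0.56), Rnf20 (0.20), Rnf41 (0.55), Trim2 (0.014), Trim46 (0.018), Trim8 (0.50) and Trim9 (0.38). With median scaling it changed for Rnf19a (0.19), Rnf41 (0.18), Trim8 (0.14) and Trim9 (0.014). With the mean of probes it changed for March2 (−0.17), March7 (−0.0021) and Trim65 (0.29). With normexp correction March7 gave −0.57, since another of its probes was then the brightest. Rnf220, near 0 in the main fit, gave −0.01 with normexp, −0.049 with cyclic loess, −0.02 with no scaling and −0.022 to 0.053 with 1 array left out (−0.00021 without control IgG replicate 1). With 1 array left out, March1 ranged from −0.75 to 1.31 (−0.037 without CPEB3 IgG replicate 2), Rnf19a from −0.22 to 0.033, Rnf41 from −0.31 to 0.096 (0.068 without CPEB3 IgG replicate 1) and Trim8 from −0.41 to 0.097.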
